A study of Mus musculus with 27 samples.

Results

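The genes described here are the 44 whose symbol in the array annotation begins with Nduf, out of 18193 genes that had a probe set of their own. They encode nuclear subunits of respiratory complex I, its Ndufaf assembly factors and a pair of Ndufa4 proteins. The rule uses the symbol and no measured value, although the family was picked with earlier results of these data known. RNA of the epididymal adipose tissue (EAT) of 27 male C57BL/6J mice was measured on Affymetrix 3′ expression arrays, with 1 array and 1 mouse per sample. The mice were 5 weeks old when bought and were fed 1 of 3 diets for 18 weeks after 1 week of acclimation, with 9 mice per diet. The control group received the AIN93G diet. The Western group received a diet rich in fat, cholesterol and sucrose, with 39.9% of its energy from fat and 34% from sucrose, and the quercetin group received the same Western diet with 0.05% quercetin, a plant flavonol. The mice carried no transgene and were housed 3 to a cage. The labels do not say which mice shared a cage, so the p-values measure the spread between mice and leave out any effect of the cage. Deposited signals are linear and unscaled, and every value below is a log2 signal after quantile normalization between the arrays, so that 1 unit is a doubling.

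Complex I, or NADH:ubiquinone oxidoreductase, is the entry point of electrons from NADH into the respiratory chain of mitochondria. Its N module oxidizes NADH, its Q module hands the electrons to ubiquinone, and the membrane arm, built around subunits encoded by mitochondrial DNA, pumps protons. The accessory subunits are all encoded in the nucleus, and assembly factors help to build the complex without staying in it. In white adipose tissue, respiration supports lipid synthesis, fatty acid oxidation and the energy needs of the adipocyte.

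The arrays carried the transcripts of adipocytes throughout. The mean of the 8 measured adipocyte markers, of a list of 10, ranged from 11.66 to 12.25 over the 27 arrays, and the defining markers Adipoq (13.46, 13.40 and 13.40 in the control, Western and quercetin groups) and Fabp4 (13.83, 13.84 and 13.82) did not pass the threshold in any comparison. Of the 8 markers, 2 did with the Western diet, the glucose transporter Slc2a4 (-0.70, adjusted p = 0.0019) and the hormone Lep (0.88, adjusted p = 0.014). The label on RNA extraction names liver, whereas the tissue label and the study's methods name EAT. Transcripts of other tissues were found on some arrays. The mean of the 9 measured hepatocyte markers was over 2 log2 units above the median of all arrays on 8 arrays, namely 2 control, 4 Western and 2 quercetin arrays. Testis markers were that far above on 6 arrays, most of all on control mouse 6 (8.87 log2 units above), smooth muscle markers on 2 and B cell and lymph node markers on 1. Counts of members are also given below without these arrays.

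Many Nduf genes fell with the Western diet, and none rose. In mice fed the Western diet, 22 of the 44 members (50%) were lower than in control mice at an adjusted p under 0.05, whereas 6.42% of all genes tested were lower. No member was higher, against 11.3% of all genes, and at an unadjusted p under 0.05 only the Ndufa4 paralog Ndufa4l2 was higher, against 17.6% of all genes. The study's own kind of test, an unequal-variance test over the 3 diets followed by Tukey's test and called the methods' test below, also called 0 members higher, against 7.41% of all genes, and called 23 lower, against 3.58%. The median log2 fold change of the members was -0.20, with a range from -0.59 to 0.39, and that of all genes was 0.00029. In 38 of 44 members the mean was lower in the Western group, against 49.9% of all genes. In 6 members all 9 Western mice lay below all 9 control mice, which was so for 0.346% of all genes. Tested over the 3 diets together, 21 members passed the threshold, against 16% of all genes. In whole tissue, fewer cells of a type and less RNA per cell cannot be told apart.

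These counts were obtained with quantile normalization and depended on the scaling. When each array was shifted to the same median instead, 3 members (Ndufa5, Ndufaf8 and Ndufb10) were lower, a share near the 3.21% of all genes, the median of the members was -0.058 and that of all genes 0.071. With the values as deposited, 8 members were lower, against 3.9% of all genes, with medians of -0.17 for the members and -0.038 for all genes. Without the 8 arrays high in hepatocyte markers 17 members were lower, against 2.67% of all genes, and Ndufa1, Ndufa2, Ndufa3, Ndufa4, Ndufc1 and Ndufs5 lost their calls. The arrays apart in markers of testis, smooth muscle or B cells were mostly from the control group. They were control mice 2, 3, 4, 6 and 9, Western mouse 7 and quercetin mice 3 and 5. Without them 22 members were lower, against 7.72% of all genes, and Ndufa3, Ndufb9 and Ndufc1 lost their calls.

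**Figure D1:**
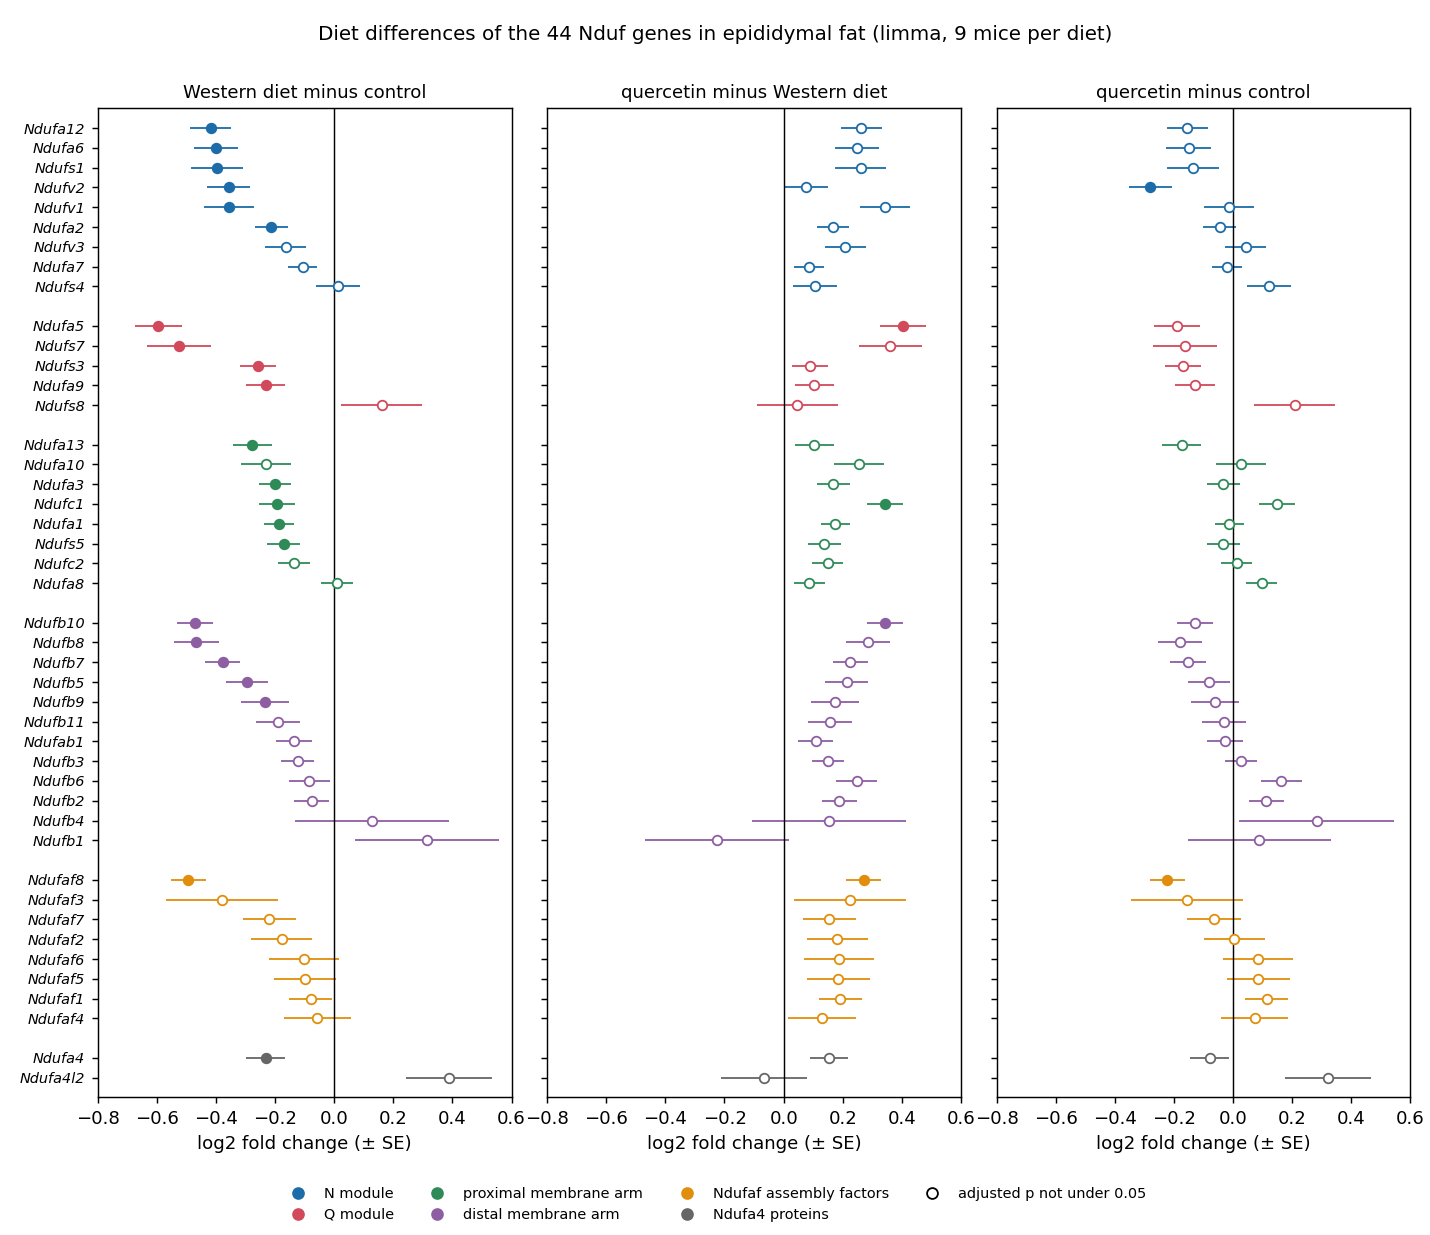
Log2 fold change of each of the 44 Nduf genes (points, with SE) for the Western diet minus control, quercetin minus Western diet and quercetin minus control, grouped by module; filled points passed an adjusted p under 0.05 in limma. In the left panel 22 points are filled and all lie left of 0, in the middle panel 4 are filled and 42 of 44 points lie right of 0, and in the right panel 2 are filled and lie left of 0.

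Of the 9 measured members of the N module, which binds NADH and carries most of the iron-sulfur clusters, 6 were lower in mice fed the Western diet, and the median of the module was -0.36. Ndufv1, which binds the flavin and NADH, ran from 10.91 to 11.37 in control mice with a median of 10.96, and from 10.47 to 10.90 with a median of 10.69 in Western mice. These ranges did not overlap, and the log2 fold change was -0.36 (SE 0.085, adjusted p = 0.0039 by limma). Its partner Ndufv2, an iron-sulfur subunit, was between 11.19 and 11.75 (median 11.34) in control mice and between 10.86 and 11.27 (median 11.04) in Western mice, a change of -0.36 (adjusted p = 0.00096). Ndufs1, the largest of the iron-sulfur subunits, went from 10.10 to 10.61 (median 10.24) in control mice to between 9.74 and 10.06 (median 9.89) in Western mice. Its change was -0.40 (SE 0.087, adjusted p = 0.0018), again without overlap. The accessory subunit Ndufa12 was at 11.68 to 12.20 (median 12.00) in control and at 11.52 to 11.72 (median 11.55) in Western mice, and fell by 0.42 (SE 0.068, adjusted p = 0.00011) with a slight overlap. Ndufa6, another accessory subunit, had control values from 10.67 to 11.32 (median 10.97) and Western values from 10.32 to 10.71 (median 10.63), a change of -0.40 (SE 0.075, adjusted p = 0.00042). Ndufa2 (-0.21, adjusted p = 0.0076) fell as well. Ndufs4, an accessory subunit attached late in assembly, averaged 9.69 ± 0.18 (SD, n = 9) in control mice and 9.71 ± 0.15 in Western mice, a change of 0.014 (adjusted p = 0.93). Ndufv3 (-0.16) and Ndufa7 (-0.11) did not pass the threshold. Still, 1 of the 5 probe sets of Ndufa7, which ran down to -0.33, was lower at an adjusted p under 0.05 over all probe sets.

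In the Q module 4 of 5 measured members were lower with the Western diet, with a median of -0.26. Ndufa5, an accessory subunit of this module, was at 10.29 to 10.88 (median 10.57) in control mice and at 9.81 to 10.17 (median 10.03) in Western mice. All Western mice lay below all control mice, and the change was -0.59 (SE 0.078, adjusted p = 2.08e-05), or 0.66 times the control signal. Ndufs7, which carries the last iron-sulfur cluster before ubiquinone, had values from 10.47 to 11.30 (median 11.20) in control mice and from 10.33 to 10.67 (median 10.53) in Western mice. It fell by 0.52 (SE 0.11, adjusted p = 0.00096). The core subunit Ndufs3 (-0.26, adjusted p = 0.0031) and the accessory subunit Ndufa9 (-0.23, adjusted p = 0.015) changed less. The remaining member, the iron-sulfur subunit Ndufs8, averaged 10.77 ± 0.45 in control mice and 10.93 ± 0.21 in Western mice (adjusted p = 0.46), and its lowest control value, 9.68, was that of mouse 6. Of the 6 measured core subunits, which are conserved down to bacteria, 5 were lower, all except Ndufs8.

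The 8 measured members of the proximal membrane arm had a median change of -0.19, and 5 were lower. Ndufa13, also known as GRIM-19, ranged from 11.68 to 12.06 (median 11.92) in control mice and from 11.44 to 11.92 (median 11.57) in Western mice, with a change of -0.28 (SE 0.066, adjusted p = 0.0040). Ndufa1, a small membrane subunit, had the smallest SD of the members in both groups, with a mean of 12.34 ± 0.078 in control mice and 12.16 ± 0.051 in Western mice, and differed by -0.19 (adjusted p = 0.0091). Ndufa3 (-0.20), Ndufc1 (-0.19) and Ndufs5 (-0.17) were also lower. Without control mouse 5, Western mouse 2 or Western mouse 7, Ndufc1 no longer passed (adjusted p up to 0.0598), and Ndufs5 no longer passed in 10 of the 27 fits that each left out 1 array (adjusted p up to 0.0686). Ndufa8 averaged 10.87 ± 0.094 and 10.88 ± 0.11 (adjusted p = 0.93), and Ndufa10 (-0.23, adjusted p = 0.058) and Ndufc2 (-0.14, adjusted p = 0.074) did not pass.

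Among the 12 measured members of the distal membrane arm 5 were lower, with a median of -0.16. Ndufb10 was at 10.63 to 11.07 (median 10.83) in control mice and at 10.26 to 10.46 (median 10.40) in Western mice. The groups did not overlap and the change was -0.47 (SE 0.061, adjusted p = 1.45e-05), or 0.72 times control. Ndufb8 went from 11.57 to 12.17 (median 11.81) down to 11.16 to 11.50 (median 11.35), likewise without overlap, a change of -0.47 (SE 0.075, adjusted p = 9.47e-05). Ndufb7 ranged from 11.13 to 11.65 (median 11.42) in control mice and from 10.85 to 11.20 (median 11.01) in Western mice, and fell by 0.38 (SE 0.060, adjusted p = 7.94e-05) with some overlap. Ndufb5 (-0.29, adjusted p = 0.0046) and Ndufb9 (12.16 ± 0.12 against 11.93 ± 0.16, adjusted p = 0.043) completed the set. Ndufb9 was the least firm of these, and lost its call in 12 of the 27 fits that each left out 1 array (adjusted p up to 0.0895). The second probe set of Ndufb5, nearly as bright (mean 10.81 beside 10.88), gave -0.11. Ndufb5 was not called with that probe set or with the mean of its probe sets. Ndufab1, the acyl carrier protein of mitochondria (-0.14), and Ndufb11, Ndufb3, Ndufb6 and Ndufb2 (-0.19 to -0.077) did not pass. However, 1 of the 5 probe sets of Ndufab1 and 1 of the 3 of Ndufb11 were lower at an adjusted p under 0.05 over all probe sets. The probe sets of these genes ran down to -0.55 and -0.25. Ndufb1 (6.21 ± 0.78 in control and 6.53 ± 0.32 in Western mice) and Ndufb4 (3.25 ± 0.56 and 3.38 ± 0.45) varied most between mice, and differences of 0.31 and 0.13 were not detectable against that spread (SE 0.24 and 0.26).

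The 8 Ndufaf assembly factors all had lower means in Western mice, with a median of -0.14, but only Ndufaf8 passed the threshold. Ndufaf8, which is needed with Ndufaf5 for the maturation of the Q module subunit Ndufs7, was between 9.31 and 9.90 (median 9.61) in control mice and between 8.99 and 9.26 (median 9.10) in Western mice. Its groups did not overlap, and the change was -0.49 (SE 0.060, adjusted p = 6.44e-06), or 0.71 times control. Its second, dimmer probe set gave -0.22 (adjusted p = 0.18 over all probe sets) and was not called. With the mean of its probe sets Ndufaf8 was still called lower. Ndufaf5 itself changed by -0.099 (adjusted p = 0.57). Ndufaf7, a mitochondrial methyltransferase, differed by -0.22 (adjusted p = 0.095), and Ndufaf3 by -0.38 with an SE of 0.19 (adjusted p = 0.17). The wide spread of Ndufaf3 came with 1 array, since control mouse 6 was at 10.70 and the median control mouse at 8.66. The other 4 members, Ndufaf1, Ndufaf2, Ndufaf4 and Ndufaf6, changed by between -0.18 and -0.057.

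The pair of Ndufa4 proteins did not move together. Ndufa4, now regarded as a subunit of complex IV, was lower in Western mice (control 12.07 ± 0.15, Western 11.83 ± 0.082, adjusted p = 0.012). Its paralog Ndufa4l2, known as a target of hypoxia signalling, ranged from 5.38 to 6.44 (median 6.13) in control mice and from 6.13 to 6.99 (median 6.40) in Western mice. The ranges overlapped, and the change of 0.39 (SE 0.15) had an adjusted p of 0.064. It passed without control mouse 2 (0.44, adjusted p = 0.042) or without quercetin mouse 9 (0.39, adjusted p = 0.049), and Ndufb1 passed as higher without control mouse 6 (0.53, adjusted p = 0.046).

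**Figure D2:**
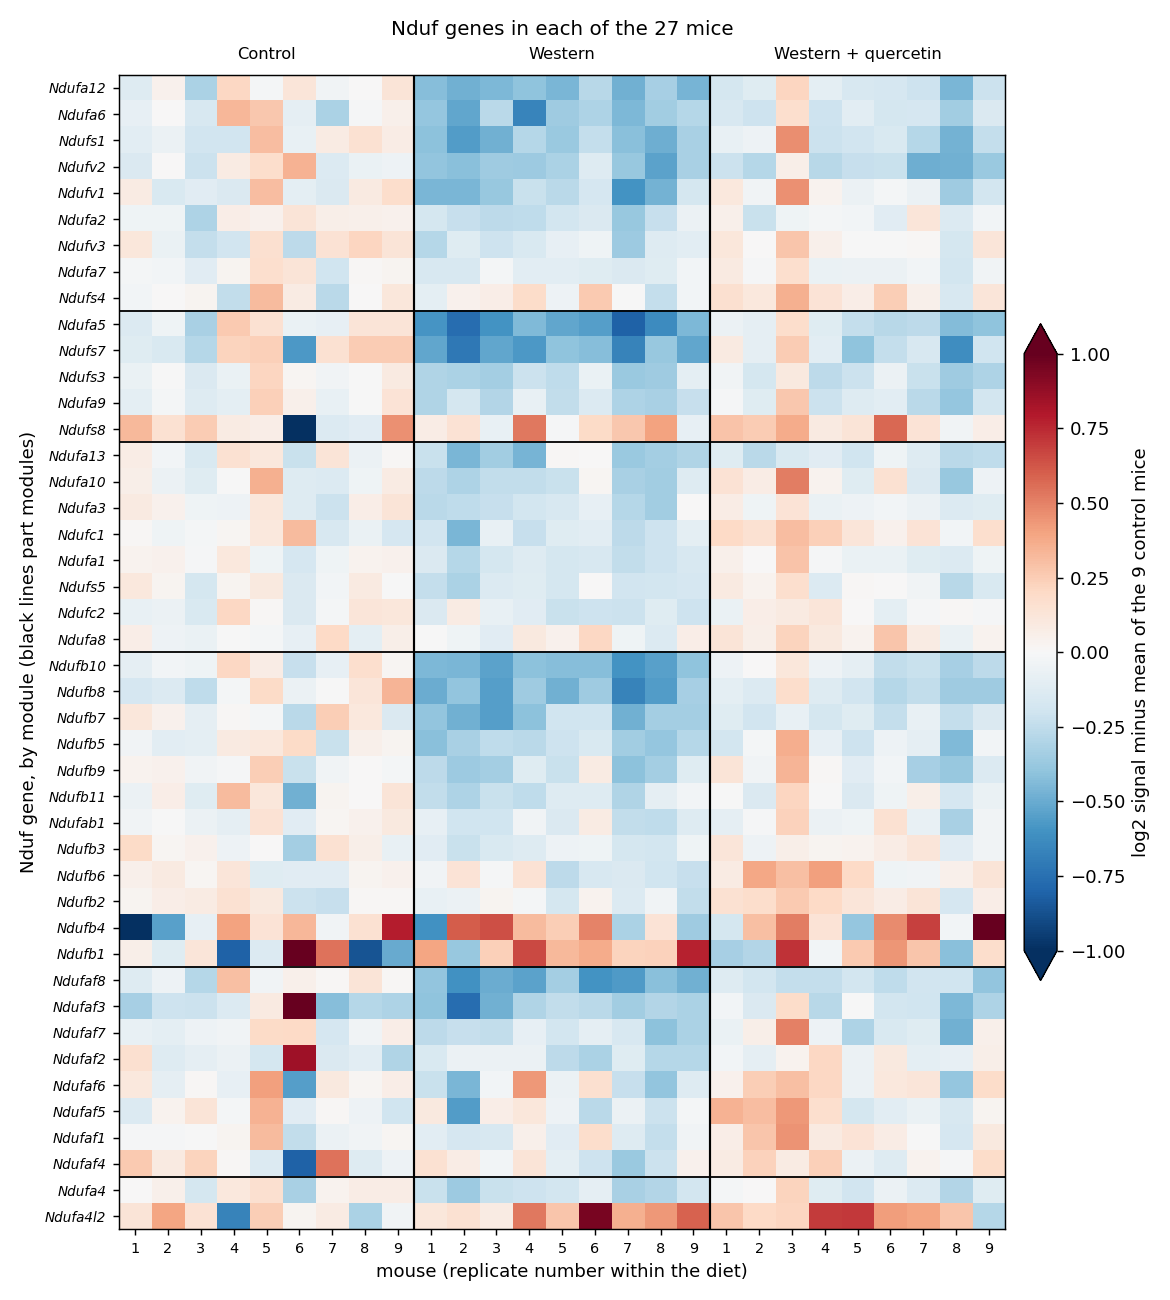
Log2 signal of each Nduf gene (rows, by module) in each of the 27 mice (columns, by diet), minus the mean of the 9 control mice; blue is below and red above control, and the scale ends at 1 in either direction. The Western columns are mostly blue in the upper 4 blocks, the quercetin columns are paler, and control mouse 6 stands apart in Ndufs8, Ndufaf2, Ndufaf3 and Ndufaf4.

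Quercetin raised 4 of the 44 Nduf genes in mice fed the Western diet, and lowered none. The 4 genes, Ndufb10, Ndufc1, Ndufa5 and Ndufaf8, make up 9.09% of the members, while 0.253% of all genes were higher with quercetin. No member was lower, against 0.0824% of all genes, nor was any at an unadjusted p under 0.05, against 6.43% of all genes, and the methods' test called none lower either. At an unadjusted p under 0.05, 26 members were higher, against 7.29% of all genes. The median of the members was 0.17, with a range from -0.23 to 0.40, and that of all genes was 0.019. In 42 of 44 members the mean was higher with quercetin than without it, against 53.4% of all genes. The exceptions were Ndufb1 (-0.23) and Ndufa4l2 (-0.066). In 3 members all 9 quercetin mice lay above all 9 Western mice, as in 0.214% of all genes. This comparison and the previous one share the Western mice, so the values of each are given side by side and not as separate support.

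Ndufb10 was at 10.53 to 10.97 (median 10.76) with quercetin and at 10.26 to 10.46 without it. There was no overlap between these groups, and the change was 0.34 (SE 0.061, adjusted p = 0.026), or 1.27 times the Western signal. The membrane subunit Ndufc1 went from 11.24 to 11.62 (median 11.50) in Western mice to between 11.66 and 12.00 (median 11.85) with quercetin, also without overlap, by 0.34 (SE 0.061, adjusted p = 0.026). Ndufa5 ranged from 10.18 to 10.79 (median 10.38) with quercetin, and its lowest value was only just above the highest Western value of 10.17. Its change of 0.40 (SE 0.078, adjusted p = 0.031) was the largest of the members. Ndufaf8 had values from 9.20 to 9.47 (median 9.40) with quercetin, overlapping the Western values slightly, and changed by 0.27 (SE 0.060, adjusted p = 0.046). The rise was seen on both probe sets of Ndufc1 (0.34 and 0.18) and of Ndufa5 (0.40 and 0.31), with the dimmer probe set not passing on its own. The second probe set of Ndufaf8 gave 0.11 (adjusted p = 0.75 over all probe sets), and Ndufb10 has only 1.

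These 4 calls were close to the threshold. Leaving out any 1 of Western mice 7 and 8 or quercetin mice 1, 2, 3 and 4 left 0 members and 0 of all genes higher. Leaving out Western mouse 3 left 1 member and no other gene. Leaving out Western mouse 1 or quercetin mouse 5 left 2 members, beside 3 and 6 of all genes. Leaving out control mouse 6 or quercetin mouse 8 gave 9 and 7 members, beside 210 and 94 of all genes. The median of the members stayed between 0.15 and 0.20 in these 27 fits. Without the arrays that stood apart in markers of testis, smooth muscle or B cells 2 members were higher, against 0.0989% of all genes. Without the 8 arrays high in hepatocyte markers 0 members and 0 of all genes were, with a median of 0.25 for the members. With all arrays shifted to one median or with the values as deposited 0 members were higher, against 0 and 0.0165% of all genes. The medians of the members were then 0.094 (all genes -0.040) and 0.22 (all genes 0.087). The methods' test called 19 members higher, limma with array weights 21, and a fit of these 2 diets alone 13, but these settings also called more of all genes higher (2.6%, 4.19% and 2.67%).

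**Figure D3:**
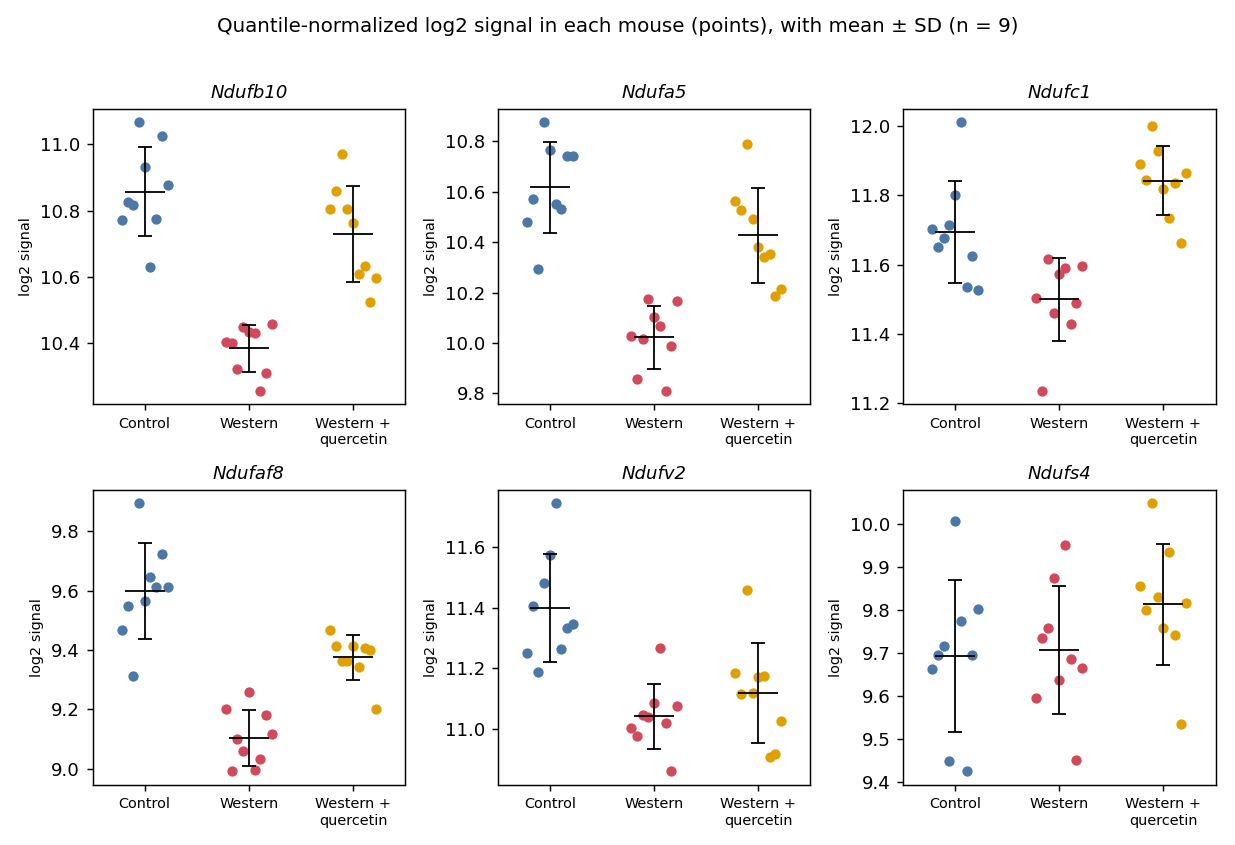
Log2 signal in each mouse (points) by diet, with the mean and SD of 9 mice, for the 4 Nduf genes that were higher with quercetin than with the Western diet alone and for Ndufv2 and Ndufs4. Every quercetin mouse lies above every Western mouse in Ndufb10, Ndufa5 and Ndufc1, Ndufv2 averaged 11.04 and 11.12 in these groups, and the 3 groups of Ndufs4 overlap throughout; the vertical axes differ between panels and do not start at 0.

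By module, the median change with quercetin was 0.21 in the N module, 0.10 in the Q module, 0.16 in the proximal and 0.18 in the distal membrane arm, and 0.19 in the assembly factors. In the N module no member passed. Ndufv1 came nearest, with 10.71 to 11.52 (median 11.03) with quercetin against 10.47 to 10.90 without it, and a change of 0.34 (SE 0.085, adjusted p = 0.069). Ndufa12 (0.26, adjusted p = 0.081), Ndufb7 (0.23, adjusted p = 0.082), Ndufb8 (0.29, adjusted p = 0.081) and Ndufb6 (0.25, adjusted p = 0.097) also lay near the threshold. Ndufs7, with 10.43 to 11.30 (median 10.89) under quercetin, changed by 0.36 with an SE of 0.11 (adjusted p = 0.12). Other genes that fell with the Western diet did not come near it, as in Ndufs3 (0.089, adjusted p = 0.57), Ndufa9 (0.10, adjusted p = 0.54) and Ndufa13 (0.10, adjusted p = 0.54). For Ndufv2 the brightest probe set gave 0.077 (adjusted p = 0.72), whereas its other probe sets gave 0.30 and 0.28 (adjusted p = 0.057 and 0.38 over all probe sets). All 8 assembly factors had a higher mean with quercetin, by 0.13 to 0.27.

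Compared with the control diet, the Nduf genes of mice fed quercetin had a median change of -0.030, beside 0.027 for all genes. The sign of that median depended on the processing, and it was 0.068 with the values as deposited and 0.050 with the arrays shifted to one median. In this comparison 2 members were lower, against 1.65% of all genes, and 0 were higher, against 5.01%. At an unadjusted p under 0.05, 3 members were higher, against 14.6% of all genes, and 9 were lower, against 7.36%. The methods' test called 1 member higher, against 5.36% of all genes, and 5 lower, against 1.57%. The 2 genes that stayed below control were Ndufv2 and Ndufaf8. Ndufv2 was between 10.91 and 11.46 (median 11.12) with quercetin, where 8 of 9 mice lay below all control mice, and changed by -0.28 (SE 0.073, adjusted p = 0.021). Its other probe sets gave -0.16 and -0.41 (adjusted p = 0.15 and 0.061 over all probe sets). The call of Ndufv2 was lost with its second brightest probe set and kept with the mean of its probe sets. Ndufaf8 changed by -0.22 (SE 0.060, adjusted p = 0.024), but not past the threshold without quercetin mouse 9 (adjusted p = 0.056) or on its second probe set (-0.11, adjusted p = 0.61 over all probe sets). Without quercetin mouse 3, which had the highest quercetin value in many members, 7 members were lower than control, beside 450 of all genes. Without quercetin mouse 9 only 1 was, beside 163 of all genes. Without control mouse 6, Ndufc1 passed as higher than control (0.19, adjusted p = 0.033). Without the 8 arrays high in hepatocyte markers, neither gene passed.

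Probe sets of a gene were compared where there were several. Of the 88 single-gene probe sets of the members, 80 had a higher mean with quercetin than with the Western diet alone, and 14 had a higher mean with the Western diet than with the control diet. Of the 22 members with more than 1 probe set, 4 had probe sets of opposite sign in each of these comparisons and 9 had them for quercetin against control, and in none did probe sets pass the threshold in opposite directions. Some subunits are read by probe sets that they share with a near copy, which for Ndufs6 and Ndufa11 are the only ones. Ndufs6, an N module subunit, shares its probe set with Ndufs6b, and that signal averaged 10.85 ± 0.093 in control, 10.58 ± 0.084 in Western and 10.85 ± 0.16 in quercetin mice, a change of -0.26 (adjusted p = 0.0040 over all probe sets) with the Western diet and a difference of 0.27 (adjusted p = 0.064) with quercetin. The bright probe set of Ndufa11 and Ndufa11b averaged 10.67, 10.74 and 10.84 in the 3 groups (adjusted p = 0.68 and 0.73). Ndufb4 has the single-gene probe set described above, and the brightest one that it shares with its copies Ndufb4b and Ndufb4c averaged 11.56 ± 0.082, 11.56 ± 0.070 and 11.71 ± 0.073. The sources of these signals within each family cannot be told apart.

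Complex I genes with other names and regulators of respiratory genes were also compared. Of the 10 measured assembly factors with other names, 2 were lower with the Western diet in limma, against 6.42% of all genes. These were Ecsit (-0.34, adjusted p = 0.0155) and Tmem186 (-0.37, adjusted p = 0.026), both of the assembly complex that builds the membrane arm with Ndufaf1. The median of the 10 was -0.010, and with quercetin it was 0.067 with 0 passing in limma in either direction. At an unadjusted p under 0.05, 1 was higher and 1 lower with quercetin, against 7.29% and 6.43% of all genes. The mitochondrially encoded subunit ND5, the only one measured, averaged 13.29, 12.99 and 13.24 in the control, Western and quercetin groups (adjusted p = 0.059 and 0.29). Among 9 regulators of respiratory genes 1 was lower in Western mice, against 6.42% of all genes. It was Tfam, which maintains mitochondrial DNA (-0.21, adjusted p = 0.041). The coactivator Ppargc1a changed by -0.60 (adjusted p = 0.11), and the factors Nrf1 (0.016), Gabpa (0.097), Yy1 (-0.092) and Esrra (-0.21) did not pass. With quercetin none of the 9 passed in limma, or at an unadjusted p under 0.05.

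Genes of the other respiratory complexes were lower with the Western diet as well. With the Western diet 3 of 4 genes of complex II, 5 of 9 of complex III, 5 of 10 of complex IV and 7 of 15 of ATP synthase were lower and none was higher, with medians of -0.26, -0.24, -0.13 and -0.14. Of all genes 6.42% were lower and 11.3% higher. With quercetin the medians of the 4 complexes were 0.099, 0.25, 0.13 and 0.11. In limma 1 gene of complex III (Uqcrc2, 0.44, adjusted p = 0.031) and 1 of ATP synthase (Atp5pb, 0.23, adjusted p = 0.033) were higher, against 0.253% of all genes. Genes for mitochondrial ribosomal proteins, 76 in all, had a median of -0.024 with the Western diet. Of the 76, 5 were higher, against 11.3% of all genes, and 5 lower, against 6.42%. With quercetin their median was 0.11, and 4 were higher, against 0.253% of all genes.

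Markers of macrophages also differed between the diets. Of 18 macrophage markers 15 were higher in Western than in control mice, against 11.3% of all genes. Among them were Cd68, by 2.52, and Itgax, which encodes CD11c, by 2.18. The mean of the 18 per mouse ranged from 7.97 to 9.30 with the control diet, from 9.16 to 10.40 with the Western diet and from 8.25 to 9.90 with quercetin. With quercetin 0 of the 18 passed in limma and 15 were lower at an unadjusted p under 0.05, against 6.43% of all genes. Over the same mice the mean of the 44 Nduf genes was 10.27 to 10.48 with the control diet, 10.07 to 10.28 with the Western diet and 10.11 to 10.59 with quercetin. With the macrophage mean as a covariate 0 members passed in any of the 3 pairwise comparisons, and the medians of the members were -0.026 for the Western diet and 0.090 for quercetin. Few of all genes passed either, 0.0055% lower with the Western diet and 0 higher with quercetin. In the Western comparison 12 members changed sign, of which Ndufa9 (0.063), Ndufb9 (0.092) and Ndufs5 (0.013) had been called. Since the markers differ between the diets themselves, the share of diet and of macrophages in these values cannot be told apart. With the mean of the adipocyte markers as a covariate, 23 members were lower with the Western diet and 4 were higher with quercetin, against 7.41% and 0.28% of all genes. That mean was 12.04, 12.03 and 12.07 in the control, Western and quercetin groups, so as a covariate it could change the diet differences little. The part of adipocyte content in these values was not tested.

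A measure of RNA quality also moved with the diets. The 3′ to 5′ log2 ratio of the actin control probe sets averaged 1.05 ± 0.23 in control, 0.81 ± 0.085 in Western and 1.16 ± 0.17 in quercetin mice, and 8 of 9 quercetin arrays lay above every Western array. With this ratio as a covariate 11 members were lower with the Western diet (median -0.16), against 2.27% of all genes, and 0 members and 0 of all genes were higher with quercetin (member median 0.12). The same ratio of Gapdh averaged 0.14 ± 0.22, -0.051 ± 0.14 and 0.19 ± 0.17 in the 3 groups, and 6 quercetin arrays lay above every Western array. With it as a covariate 25 members were lower with the Western diet, against 6.52% of all genes, and 1 was higher with quercetin, against 0.0055%. The part of RNA quality in the results was not tested further.

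**Figure D4:**
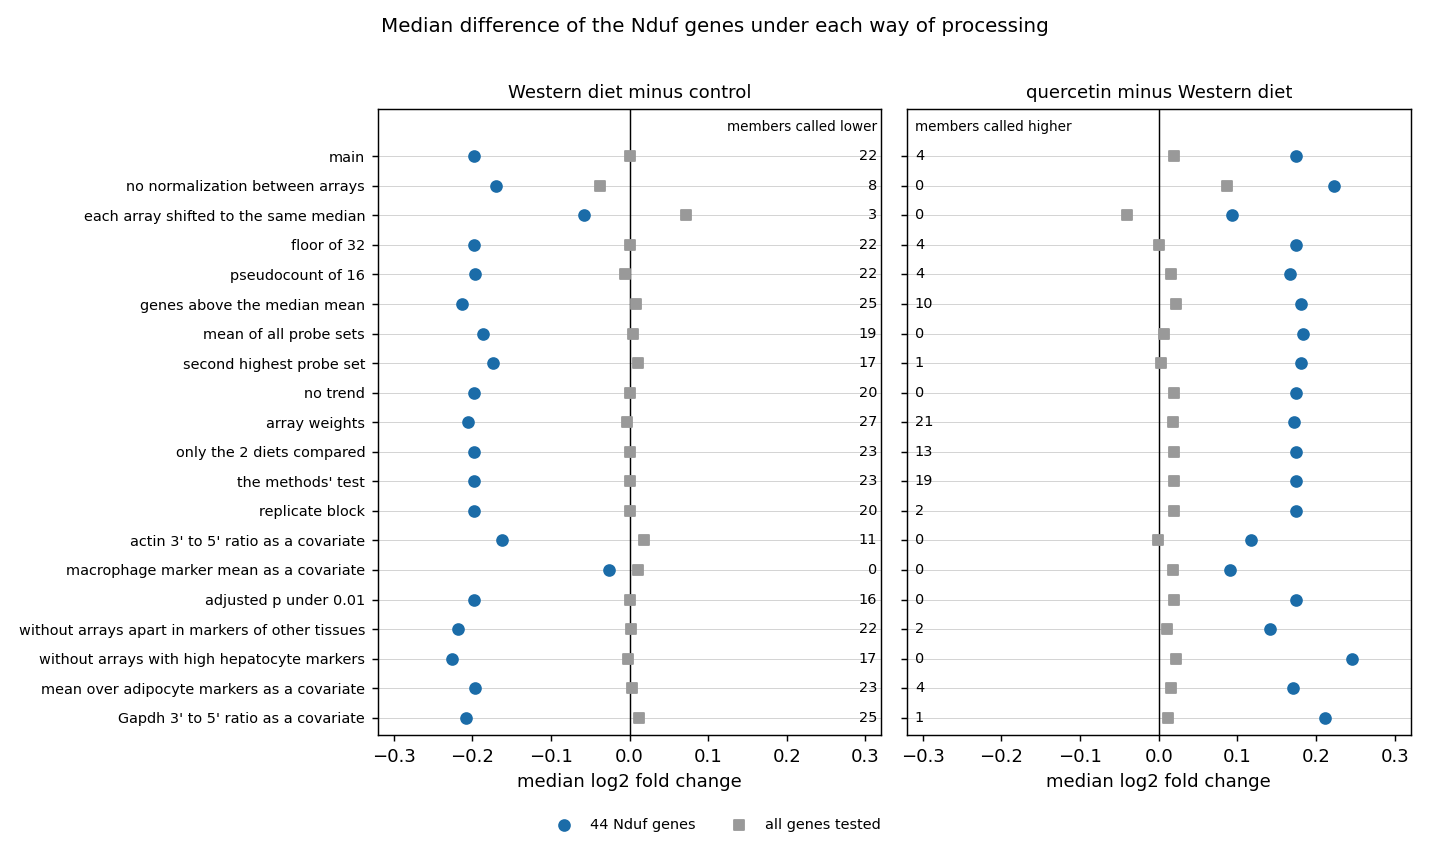
Median log2 fold change of the 44 Nduf genes (circles) and of all genes tested (squares) under each way of processing, for the Western diet minus control and for quercetin minus Western diet; the numbers at the edge are the members that passed the threshold. The circles lie left of the squares in every row of the left panel and right of them in every row of the right panel, and the macrophage covariate brings them closest in the left panel, at -0.026 and 0.011.

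Promoter sequences were taken for the 4 genes called higher with quercetin than with the Western diet alone. They are 300 bases each, from 250 before to 50 after the start of the gene, on the strand of the gene, from RefSeq on build GRCm38.p6. Letters of 4 motifs of factors known to act on respiratory genes were searched on both strands, and matches are in capitals: GCGCATGCG for NRF1, CCGGAAG for GABPA, AAGATGGC for YY1 and AAGGTCA for ERRA. None of the motifs contains another.
Ndufaf8, chr11:120098684-120098983, plus strand: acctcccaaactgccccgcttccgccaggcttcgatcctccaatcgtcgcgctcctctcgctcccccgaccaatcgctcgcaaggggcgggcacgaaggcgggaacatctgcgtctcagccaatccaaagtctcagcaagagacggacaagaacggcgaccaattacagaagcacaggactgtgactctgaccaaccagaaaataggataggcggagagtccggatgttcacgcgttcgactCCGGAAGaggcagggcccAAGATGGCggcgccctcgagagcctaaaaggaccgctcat
Ndufc1, chr3:51408906-51409205, minus strand: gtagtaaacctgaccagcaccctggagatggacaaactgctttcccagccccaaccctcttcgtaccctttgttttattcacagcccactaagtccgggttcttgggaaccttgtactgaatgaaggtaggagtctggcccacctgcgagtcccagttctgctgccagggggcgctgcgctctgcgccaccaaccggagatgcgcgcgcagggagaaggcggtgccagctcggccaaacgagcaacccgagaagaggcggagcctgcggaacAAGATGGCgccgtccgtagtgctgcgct
Ndufb10, chr17:24724374-24724673, minus strand: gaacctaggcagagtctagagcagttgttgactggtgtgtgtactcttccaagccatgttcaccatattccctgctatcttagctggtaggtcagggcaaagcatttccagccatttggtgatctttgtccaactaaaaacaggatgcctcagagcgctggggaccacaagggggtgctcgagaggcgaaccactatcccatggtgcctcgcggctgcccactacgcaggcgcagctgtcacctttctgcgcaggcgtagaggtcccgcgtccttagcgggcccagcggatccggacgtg
Ndufa5, chr6:24527477-24527776, minus strand: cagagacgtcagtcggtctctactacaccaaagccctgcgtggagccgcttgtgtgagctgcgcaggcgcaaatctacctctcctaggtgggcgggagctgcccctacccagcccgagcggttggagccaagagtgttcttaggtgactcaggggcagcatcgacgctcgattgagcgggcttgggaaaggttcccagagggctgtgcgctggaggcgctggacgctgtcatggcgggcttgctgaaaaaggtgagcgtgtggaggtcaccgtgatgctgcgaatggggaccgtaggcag

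A second annotated start of Ndufa5 is not shown. The promoter of Ndufaf8 held both the GABPA and the YY1 letters, that of Ndufc1 the YY1 letters, and those of Ndufb10 and of both starts of Ndufa5 none of the 4. Among the 39 members matched to a promoter, the YY1 letters were in 17.9% (7 genes), against 3.19% of 27025 genes in the table. The other genes with them were Ndufa3, Ndufa9, Ndufb8, Ndufs4 and Ndufs7, of which Ndufs4 passed in no comparison while the other 4 were lower with the Western diet. Of all 44 members, with or without these letters, 50% were lower, against 6.42% of all genes. A link between the letters and the diet changes was not tested. The GABPA letters were in 15.4% of the members (6 genes) and 9.93% of all genes, and the NRF1 and the ERRA letters in 7.69% of the members each (3 genes), against 1.95% and 5.38% of all genes. At least 1 of the motifs was in 46.2% of the members and 18.9% of all genes. A match is a run of letters and does not show that a factor binds there.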

How the data were processed

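RNA of the EAT of 27 mice, 9 per diet, was hybridized to Affymetrix arrays, and the authors made the deposited linear signal intensities with Microarray Suite and GeneSpring, without scaling between arrays. Such probe-level summaries depend on the scaling chosen, and the number of arrays limits the precision. Here the intensities of 45101 probe sets were quantile-normalized, values under 1 were set to 1, and log2 was taken. Each gene was represented by its single-gene probe set with the highest mean. Groups follow the diet in the sample labels. The 18193 genes were fitted together over 27 arrays in R 4.3.3 with limma 3.58.1, whose prior variance followed the mean signal. Benjamini-Hochberg adjustment covered every gene, and calls were made below an adjusted p of 0.05. The code was tested on simulated data. Motifs were searched and figures drawn in Python 3.11.15 with matplotlib 3.10.9.

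The members and lists were chosen with earlier results of these data known. Every Nduf gene could be named, with most detail for those called with quercetin, the 10 largest called changes with the Western diet, and per module the brightest, the dimmest and those with the smallest p. Alternatives were other scalings, a floor of 32, a pseudocount of 16, other probe sets, limma settings, the methods' test, a replicate block, covariates, a threshold of 0.01 and arrays left out. Leaving out the arrays high in hepatocyte markers and the adipocyte and Gapdh covariates were chosen after seeing the data.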

Additional observations from a re-analysis of the deposited data

Results flagged for a closer look

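In each diet the 9 mice were searched for a single value far from the rest, in 132 groups of a member and a diet. Chance marks about 1 in 20 such groups, and 19 were marked here. Quercetin mouse 3 lay far above the rest of its group in 5 members, Ndufa1 (12.63), Ndufa6 (11.15), Ndufb8 (12.01), Ndufs1 (10.76) and Ndufv2 (11.46). Control mouse 6, whose array carried testis transcripts, was marked in 5 members, above the others in Ndufaf2 (8.44) and Ndufaf3 (10.70) and below them in Ndufaf4 (7.97), Ndufb3 (11.10) and Ndufs8 (9.68). Western mouse 2 was the lowest of its group in Ndufaf3 (8.12), Ndufb1 (5.83) and Ndufc1 (11.24) and the highest in Ndufc2 (11.97). Control mouse 5 was the highest in Ndufa10 (11.68) and Ndufaf1 (8.91). Single lowest values were those of control mouse 3 in Ndufa2 (11.37), quercetin mouse 8 in Ndufb2 (10.58) and quercetin mouse 9 in Ndufaf8 (9.20). The part of the testis transcripts in the values of control mouse 6 was not tested beyond leaving out its array.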

How the results depend on the processing

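The median of the members kept its sign with the Western diet and with quercetin against the Western diet under all 19 alternatives and in all 27 fits that left out 1 array. That of quercetin against control, -0.030, turned positive under 5 of them, up to 0.068 with no normalization. The counts moved more. With no normalization between arrays, 8 members were lower with the Western diet, 0 higher with quercetin than with the Western diet, 0 lower with quercetin than control and 7 passed over the 3 diets. Of all genes 3.9%, 0.0165% and 0.209% passed in these pairwise comparisons. Shifting each array to the same median gave 3, 0, 0 and 3, with a Western median of -0.058, and 3.21%, 0 and 0.715% of all genes. The actin ratio gave 11, 0, 4 and 12, and 2.27%, 0 and 2.09% of all genes. The macrophage covariate gave 0, 0, 0 and 1, and 0.0055%, 0 and 0.181% of all genes. With it the Western median was -0.026 and the signs of 12 members turned, among them the called Ndufa9 (0.063), Ndufb9 (0.092) and Ndufs5 (0.013). The next counts of members are followed by the share of all genes in brackets. For quercetin against the Western diet, 10 members were higher among genes above the median mean (1.48%) and 0 with the mean of all probe sets (0). There was 1 with the second probe set (0.0385%) and 0 without the trend (0). Array weights gave 21 (4.19%), these diets alone 13 (2.67%) and the methods' test 19 (2.6%). At an adjusted p under 0.01 there were 0 (0). Without the arrays apart in other tissues' markers 2 were higher (0.0989%), without those high in hepatocyte markers 0 (0), and with the Gapdh ratio 1 (0.0055%). For quercetin against control, the members lower were 1 with the mean of all probe sets (1.14%) and 0 with the second probe set (1.39%). Array weights gave 4 (3.66%), these diets alone 0 (0.495%), the methods' test 5 (1.57%) and the stricter threshold 0 (0.308%). Without the arrays apart in other tissues' markers there were 4 (2.46%), and without those high in hepatocyte markers 0 (0.297%). With array weights and the methods' test 1 was higher (5.9% and 5.36%). Over the 3 diets 13 passed at the stricter threshold. With the adipocyte covariate 1 member, Ndufa4l2, was higher with the Western diet, against 12.6% of all genes. Beyond the scalings and covariates given, the causes were not tested. Leaving out 1 array gave 19 to 27 members lower and 0 to 1 higher with the Western diet, 0 to 9 higher with quercetin, 1 to 7 lower and 0 to 1 higher than control, and 17 to 29 over the 3 diets. Of all genes, 921 to 1872 were then lower and 1793 to 2360 higher with the Western diet. With quercetin 0 to 210 were higher than with the Western diet alone, and 158 to 591 lower and 545 to 1419 higher than control.

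Replicate numbers did not pair the mice. The correlations of the deviations of same-numbered mice ran from -0.33 to 0.18 over 27 pairs, with 4 over 0.1. With the number as a block 20 members were lower with the Western diet and 2 higher with quercetin, against 5.79% and 0.033% of all genes. Precision is limited for dim probe sets such as the single-gene one of Ndufb4, and the spread between mice limits differences of about 0.1.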
